A study of Mus musculus with 8 samples.

Results

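The 10 immediate early genes Fos, Fosb, Jun, Junb, Egr1, Nr4a1, Nr4a2, Nr4a3, Ier2 and Dusp1 were followed by RNA-seq in neuro-intermediate lobes of mouse pituitaries. They were picked by name from 48526 genes of the count table, and all 10 were among the 15580 genes with enough counts to be tested. The study asked what the transcription factors Creb3l2 and XBP1 contribute to the secretory and translational capacity of melanotropes, the POMC cells of the intermediate lobe. Its 4 groups had 2 libraries each, every library made from a pool of 5 lobes of C57B6 mice, which were males of 3 months per the study's methods. WT mice carried no transgene. ACreb3l2 mice carried a dominant negative form of Creb3l2 with an acidic extension that holds the factor off DNA, AXBP1 mice carried the same kind of protein against XBP1, and ACreb3l2/AXBP1 mice carried both. Both transgenes were driven by a rat POMC promoter, so they act in POMC cells, while the dissected tissue also holds the neural lobe with its pituicytes, vessels and axon endings. The study kept 2 lines per transgene and showed results for 1 of them, and the labels do not say from which line the libraries came. In bulk tissue, fewer cells that express a gene and less RNA of it per cell cannot be told apart.

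Immediate early genes are switched on within minutes of a stimulus without new protein synthesis, mostly through CREB after cAMP or calcium signals and through SRF and its partners after ERK signals. Fos, Fosb, Jun and Junb encode subunits of AP-1, Egr1 a zinc finger factor, and Nr4a1, Nr4a2 and Nr4a3 the orphan nuclear receptors Nur77, Nurr1 and Nor1. Ier2 encodes a small nuclear protein, and Dusp1 a phosphatase that switches MAP kinases off. In POMC cells the Nr4a receptors are known as mediators of CRH and cAMP signals at the Pomc promoter. Transcripts of this class are short-lived and respond to handling and dissection as well as to hormones.

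Libraries held 28256086 to 37988912 counts. The 10 genes together took 0.196% and 0.106% of counts in the WT libraries, 0.116% and 0.0596% for ACreb3l2, 0.0588% and 0.0698% for AXBP1, and 0.115% and 0.0698% for ACreb3l2/AXBP1. The melanotrope label was borne out by Pomc, which took between 6.91% and 14.6% of all counts of a library, and by 7 of 8 melanotrope markers with enough counts to test. Markers of the other cells in the dissection were present as well, with none of the 8 genes of any list at 0. The gene totals of Creb3l2 and Xbp1 did not check the labels. The study's RT-qPCR put transgene mRNA above the endogenous mRNA in its selected lines, and these gene totals do not show such an excess. Creb3l2 had 28682 and 28195 normalized counts for WT and 27212 and 26775 for ACreb3l2. Xbp1 had 11877 and 13436 for WT and 12448 and 13850 for AXBP1. With the other single transgene each lay below both WT libraries. Creb3l2 had 18837 and 22833 in AXBP1, and Xbp1 had 9155 and 9205 in ACreb3l2. In ACreb3l2/AXBP1 Creb3l2 had 21205 and 14044 and Xbp1 17639 and 12855, so that 1 library of this group was above both WT libraries in Xbp1. The library ACreb3l2/AXBP1 replicate 2 stood apart in its melanotrope markers, whose median lay 1.04 below the WT mean on the log2 scale (-1.04), against -0.31 in the other library of that group. The changes called in that group are therefore also given without it.

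Compared per length by the authors' FPKM, the members spanned a wide range in WT lobes. Junb was highest at 287 and 101 FPKM in the WT libraries, followed by Nr4a1 at 192 and 125 FPKM. Dusp1 reached 103 and 65.3 FPKM, Fos 86.0 and 71.3 FPKM, and Nr4a2 68.9 and 44.2 FPKM. Egr1 stood at 35.3 and 19.1 FPKM, Ier2 at 21.6 and 13.5 FPKM, and Jun at 9.13 and 9.72 FPKM. Nr4a3 and Fosb came last, at 5.07 and 3.41 FPKM and at 4.01 and 3.15 FPKM. The ranges of the neighbours Junb and Nr4a1, Dusp1 and Fos, Egr1 and Ier2, and Nr4a3 and Fosb overlapped, and the other neighbours in this order did not. All 10 genes were thus detected in WT lobes, and Nr4a1 was the most abundant of the receptors in all 8 libraries. In AXBP1 and in ACreb3l2/AXBP1 the group means put Nr4a1 first, at 48.3 ± 5.05 FPKM (SD, n = 2) and 99.1 ± 19.3 FPKM (SD, n = 2), with Junb next at 47.1 ± 14.5 FPKM (SD, n = 2) and 66.5 ± 28.3 FPKM (SD, n = 2).

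Against WT, 9 of the 10 genes had lower means in each of the 3 transgenic groups, and Jun alone had higher ones. The 10 genes had a median log2 change of -0.74 for ACreb3l2, -1.08 for AXBP1 and -0.77 for the double transgenics, where the median of all genes tested was 0.01, 0.00 and 0.01. A log2 change below 0 was found for 48.2% of all genes tested with ACreb3l2, 49.7% with AXBP1 and 48.3% with both. None of these changes passed the test of edgeR, which compares them with the spread between replicate libraries. The 3 comparisons share the same WT libraries, and the 9 lower genes vary together, so the counts of lower genes are not independent of each other. Without WT replicate 1, the WT library with the higher levels, 7 genes were lower in ACreb3l2, 9 in AXBP1 and 7 for ACreb3l2/AXBP1. Without ACreb3l2 replicate 2, 6 genes were lower in ACreb3l2. The medians moved as well. For ACreb3l2 the median was -0.25 without WT replicate 1, -0.42 without ACreb3l2 replicate 2 and -1.31 without ACreb3l2 replicate 1. For ACreb3l2/AXBP1 it was -0.44 without WT replicate 1 and -0.38 without replicate 2 of that group, and for AXBP1 it lay between -1.39 and -0.79 whichever library was left out.

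**Figure D1:**
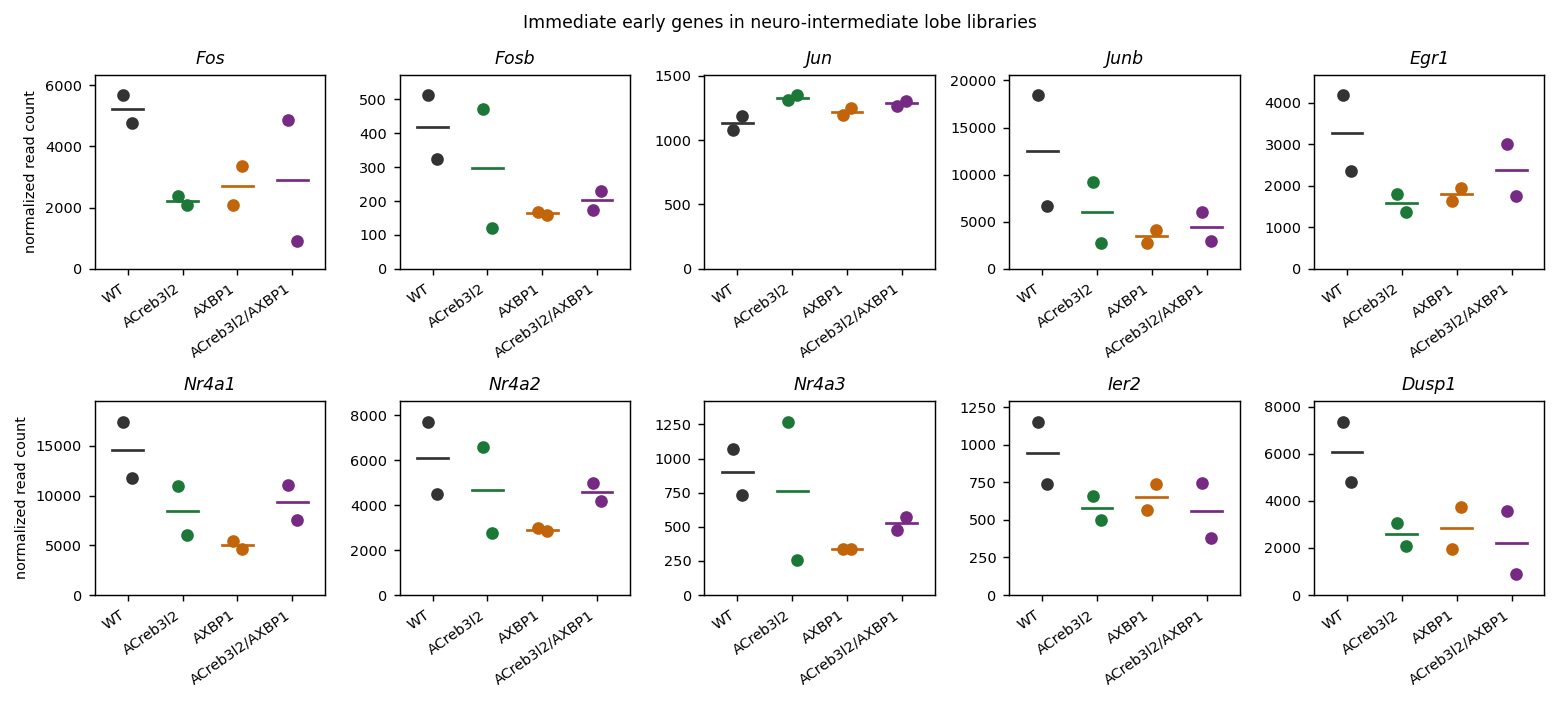
Normalized read counts (y axis, linear from 0, a separate scale per gene) of the 10 immediate early genes in WT, ACreb3l2, AXBP1 and ACreb3l2/AXBP1 lobes. Each point is a library and each bar the mean of 2 libraries. Nr4a1 and Dusp1 lie below both WT libraries in all 6 transgenic libraries, and Jun stays between 1079 and 1348 throughout.

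Nr4a1 (Nur77, ENSMUSG00000023034, chromosome 15, 101266846 to 101274792 on mm10, plus strand) gave the lowest unadjusted p of the members in AXBP1 and in the joint test of any difference among the groups. Its normalized counts, scaled by TMM to the mean depth, were 17434 and 11754 for WT, 10980 and 6000 for ACreb3l2, 5424 and 4630 for AXBP1, and 11112 and 7592 for ACreb3l2/AXBP1. Both WT libraries lay above all 6 transgenic libraries, and the AXBP1 libraries were the lowest. The log2 change from WT was -0.78 ± 0.36 (SE) for ACreb3l2, -1.54 ± 0.37 for AXBP1 and -0.64 ± 0.36 for ACreb3l2/AXBP1. Over the alternative fits, which include those with a library left out, these changes moved. They ran from -1.28 to -0.41, from -1.80 to -1.23 and from -0.94 to -0.33, in the same order. The AXBP1 mean was 2.90-fold below WT, with an unadjusted edgeR p of 0.00655 and an adjusted p of 0.474 over all genes tested. The interaction, which sets the change in ACreb3l2/AXBP1 against both single changes added up, was 1.68 ± 0.51 on the log2 scale, with an unadjusted edgeR p of 0.0183 and an adjusted p of 1.00.

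Nr4a2 (Nurr1, chromosome 2, 57106830 to 57124003, minus strand) had normalized counts of 7725 and 4519 for WT, 6605 and 2749 for ACreb3l2, 2996 and 2842 for AXBP1, and 4994 and 4176 for ACreb3l2/AXBP1. Only the AXBP1 libraries were both below WT, by 1.07 ± 0.48 (SE) on the log2 scale (-1.07, edgeR adjusted p = 0.534), and the other groups overlapped with WT. Over the alternative fits the change of Nr4a2 in AXBP1 ran from -1.41 to -0.63. Nr4a3 (Nor1, chromosome 4, 48045153 to 48086447, plus strand) had 1068 and 729.6 for WT, 1270.3 and 260.5 for ACreb3l2, 341 and 335 for AXBP1, and 476 and 575 for ACreb3l2/AXBP1. Its ACreb3l2 libraries lay on either side of WT and differed 4.88-fold from each other, while the AXBP1 libraries agreed within 1.02-fold. The log2 change of Nr4a3 was -1.41 ± 0.76 (SE) in AXBP1 and -0.78 ± 0.73 in ACreb3l2/AXBP1, both below WT in each library. Over the alternative fits these changes ran from -1.66 to -1.04 and from -1.03 to -0.47. For ACreb3l2 the change of Nr4a3 was -0.22 ± 0.72, and it turned to 0.50 without ACreb3l2 replicate 2 and to 0.08 without WT replicate 1. Nr4a2 in ACreb3l2 turned in the same way, from -0.39 ± 0.47 to 0.11 and 0.05.

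Among the AP-1 subunits, Fos (ENSMUSG00000021250, chromosome 12, 85473890 to 85477273, plus strand) had normalized counts of 5669.8 and 4778 for WT, 2379 and 2077 for ACreb3l2, 2073 and 3363 for AXBP1, and 4876 and 904.5 for ACreb3l2/AXBP1. In both groups with a single transgene Fos was below WT without overlap, by 2.34-fold and 1.92-fold (log2 change -1.23 ± 0.82 and -0.94 ± 0.81, SE). The ACreb3l2/AXBP1 libraries differed 5.39-fold, the widest gap between replicates of any member, so that replicate 1 was at the level of WT and replicate 2 the lowest of all libraries. The change of Fos in ACreb3l2/AXBP1 was -0.86 ± 0.81, with -0.11 without replicate 2 of that group and -2.53 without replicate 1, where it was called (edgeR adjusted p = 0.0100).

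Fosb (chromosome 7, 19302696 to 19310051, minus strand) had 512 and 324 normalized counts for WT, 473 and 121 for ACreb3l2, 168 and 159 for AXBP1, and 174 and 229 for ACreb3l2/AXBP1. Like Nr4a3, it was split in ACreb3l2, with 3.91-fold between the libraries, and below both WT libraries in AXBP1 and ACreb3l2/AXBP1, by 1.35 ± 0.63 and 1.05 ± 0.61 on the log2 scale (-1.35 and -1.05). Without ACreb3l2 replicate 2 its change in ACreb3l2 went from -0.47 ± 0.60 to 0.18. Junb (chromosome 8, in loci of 84974484 to 84976542 and 84976910 to 84978718 that were summed, minus strand) had 18422 and 6694 for WT, 9266 and 2719 for ACreb3l2, 2722 and 4160.2 for AXBP1, and 6026 and 2902 for ACreb3l2/AXBP1. Its mean was 3.65-fold lower in AXBP1 (log2 change -1.87 ± 0.88), and it also had the largest gap within WT, 2.75-fold. Without WT replicate 1 the change in AXBP1 was -0.96, smaller than the -1.23 of Nr4a1, and without WT replicate 2 it was -2.42. In ACreb3l2/AXBP1 the change of -1.49 became -0.59 without WT replicate 1. The edgeR adjusted p of Junb was 0.551 in AXBP1 and 0.324 for ACreb3l2/AXBP1. The end of the Junb locus overlaps Prdx2 on the other strand, and the strand setting of the counting is not given in the sources used here, so reads in that overlap are uncertain.

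Jun (ENSMUSG00000052684, chromosome 4, 95049034 to 95052222, minus strand) behaved unlike its partners. Its normalized counts were 1079 and 1187 for WT, 1314 and 1348 for ACreb3l2, 1192 and 1249 for AXBP1, and 1268 and 1303 for ACreb3l2/AXBP1. All transgenic libraries were above both WT libraries, with log2 changes of 0.23 ± 0.09 (SE), 0.11 ± 0.09 and 0.18 ± 0.09. In ACreb3l2 the unadjusted edgeR p was 0.0254 and the adjusted p 0.219. The change is small enough to depend on scaling: by FPKM it was -0.054 or -0.049 in AXBP1, depending on the pseudocount, where all genes together were lower. The gene Junos on the other strand overlaps the 5′ end of Jun.

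Egr1 (chromosome 18, 34859823 to 34864984, plus strand), the immediate early factor most used as a marker of ERK signaling, had 4184 and 2357 normalized counts for WT, 1798 and 1375 for ACreb3l2, 1634 and 1959 for AXBP1, and 3003 and 1762 for ACreb3l2/AXBP1. The single transgenic groups were below both WT libraries, by 1.04 ± 0.38 and 0.87 ± 0.37 on the log2 scale (-1.04 and -0.87, SE). Over the alternative fits these changes ran from -1.40 to -0.57 and from -1.22 to -0.39. The unadjusted edgeR p was 0.0357 in ACreb3l2 and the adjusted p 0.256. ACreb3l2/AXBP1 overlapped with WT at -0.46 ± 0.37, and the change was 0.015 without WT replicate 1. The interaction of Egr1 was 1.45 ± 0.53 on the log2 scale, with an unadjusted edgeR p of 0.0374 and an adjusted p of 1.00.

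Ier2 (chromosome 8, 84661331 to 84662852, minus strand, a single exon) had normalized counts of 1153 and 738.4 for WT, 655 and 502 for ACreb3l2, 565 and 737.8 for AXBP1, and 747 and 376 for ACreb3l2/AXBP1. Its change was -0.54 ± 0.38 (SE) in AXBP1, where replicate 2 was less than 1 normalized count below WT replicate 2, with -0.18 without WT replicate 1. It was -0.71 ± 0.38 in ACreb3l2, with -0.35 without WT replicate 1. In ACreb3l2/AXBP1 the change of -0.76 ± 0.38 became -0.35 without replicate 2 of that group and -1.33 without replicate 1, where it was called (edgeR adjusted p = 0.0450). Dusp1 (ENSMUSG00000024190, chromosome 17, 26505590 to 26508519, minus strand) had 7362 and 4812 for WT, 3062 and 2092 for ACreb3l2, 1935 and 3754 for AXBP1, and 3557 and 897 for ACreb3l2/AXBP1. All 6 transgenic libraries were below both WT libraries, as for Nr4a1. The fold was 2.36 for ACreb3l2, 2.14 for AXBP1 and 2.74 for ACreb3l2/AXBP1 (log2 change -1.24 ± 0.77, -1.10 ± 0.77 and -1.45 ± 0.77), with edgeR adjusted p of 0.504, 0.642 and 0.289. In ACreb3l2/AXBP1 the change was -0.78 without replicate 2 of that group and -2.76 without replicate 1.

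Between the transgenic groups no member passed the test. Nr4a1 was 0.90 ± 0.36 (SE) higher on the log2 scale in ACreb3l2/AXBP1 than in AXBP1 (edgeR adjusted p = 0.451), and 0.76 ± 0.36 higher in ACreb3l2 than in AXBP1 (edgeR adjusted p = 0.612). In both cases the libraries did not overlap, and with a library left out the differences ran from 0.59 to 1.14 and from 0.26 to 1.13. Nr4a3 was 1.19 ± 0.76 higher in ACreb3l2 than in AXBP1, but its AXBP1 libraries lay between the ACreb3l2 libraries. That difference turned to -0.37 without ACreb3l2 replicate 1, and was 1.91 and called without ACreb3l2 replicate 2 (edgeR adjusted p = 0.0195). For ACreb3l2 against AXBP1 the median over the 10 genes was 0.40 (-0.37 to 0.62 with a library left out, lowest without ACreb3l2 replicate 1). For ACreb3l2/AXBP1 against ACreb3l2 the median over the 10 genes was -0.05 (-0.41 to 0.68 with a library left out), and for ACreb3l2/AXBP1 against AXBP1 it was 0.34 (0.034 to 0.62 with a library left out). The lowest edgeR adjusted p of any member in these 3 comparisons was 0.451.

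**Figure D2:**
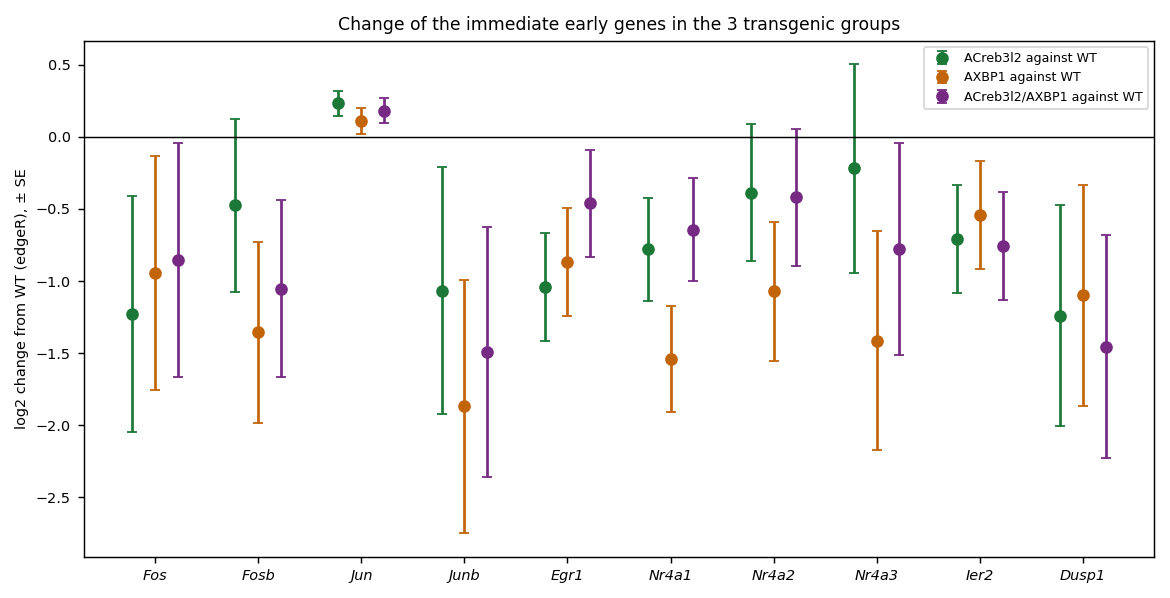
Log2 change from WT (y axis, edgeR estimate ± SE) of each immediate early gene in ACreb3l2 (green), AXBP1 (orange) and ACreb3l2/AXBP1 (purple). The points of 9 genes lie below 0 in all 3 comparisons, from -1.87 for Junb to -0.22 for Nr4a3, with wide errors, and Jun lies above 0 with an SE of 0.09.

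The counts of calls were 0 of 10 in every comparison by edgeR (adjusted p under 0.05). Of all genes tested, 3.04% were called in ACreb3l2 against WT, 0% in AXBP1 against WT and 10.1% in ACreb3l2/AXBP1 against WT. Between transgenic groups 0.719% were called for ACreb3l2 against AXBP1, 0.623% for ACreb3l2/AXBP1 against AXBP1 and 0% for ACreb3l2/AXBP1 against ACreb3l2. The interaction called 0%, and the joint test of any difference among the 4 groups 3.21%. At an unadjusted p under 0.05, 2 members passed in ACreb3l2 (Jun and Egr1), 1 in AXBP1 (Nr4a1), 0 in ACreb3l2/AXBP1, 2 in the interaction (Nr4a1 and Egr1), 1 in the joint test (Nr4a1) and 0 in each comparison of transgenic groups. The shares of all genes at that level were 16.8%, 9.97%, 29.7%, 2.48% and 19.2%, in the same order. Between transgenic groups they were 9.49% for ACreb3l2 against AXBP1, 11.1% for ACreb3l2/AXBP1 against AXBP1 and 7.14% for ACreb3l2/AXBP1 against ACreb3l2. DESeq2 called 1 member, Nr4a1, in AXBP1 (adjusted p = 0.0448; 1.52e-45 to 0.990 over all alternatives) and in the joint test, beside 0.469% and 8.90% of all genes, and 0 in the others, and limma on FPKM called 0.

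Without a fitted spread, the libraries can be read by their order alone. Both libraries of ACreb3l2 were below both WT libraries for 5 members (Fos, Egr1, Nr4a1, Ier2 and Dusp1), where 23.2% of all genes tested were. For AXBP1 it was 9 members, all but Jun, where 23.8% of all genes were, with Ier2 below by less than 1 normalized count. It was 8 when scaled by library size alone, where 15.6% of all genes were, and 9 by deposited FPKM, where 51.0% were. For ACreb3l2/AXBP1 it was 5 members (Fosb, Junb, Nr4a1, Nr4a3 and Dusp1), where 28.7% of all genes were. All 6 transgenic libraries were below both WT libraries for 2 members, Nr4a1 and Dusp1, where 12.2% of all genes were. With a library left out, the share of all genes that meet this condition was higher in every group. In AXBP1 the count was then 9 without either WT or either AXBP1 library, where 32.8% to 42.0% of all genes were. In ACreb3l2 it was 9 without ACreb3l2 replicate 1 and 8 without WT replicate 2, where 36.3% and 34.8% of all genes were. In ACreb3l2/AXBP1 it was 9 without replicate 1 of that group and 9 without WT replicate 2, where 40.3% and 37.1% were. By deposited FPKM it was 8 and when scaled by library size alone 3, where 32.6% and 15.4% were. Over all 6 transgenic libraries the count was 8 without WT replicate 2 and 5 without replicate 1 of either ACreb3l2 or ACreb3l2/AXBP1, where 18.8%, 15.3% and 12.8% were. Genes are not independent here, since members of 1 library move together.

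Of the markers of other cells, 1 passed the test in a comparison with WT, and the levels of several lists differed between groups. The summed level of 8 anterior lobe markers, led by Gh and Prl, was 4604 to 6996 CPM, that is counts scaled to the library total, in WT, 3648 to 4751 in ACreb3l2, 2361 to 2412 in AXBP1 and 3077 to 6231 in ACreb3l2/AXBP1, so the AXBP1 libraries held least. Of the 8, 6 were lower in AXBP1 and 0 were called by edgeR. Endothelial markers, led by Kdr and Flt1, summed to 141 to 179 CPM in WT, 123 to 215 in ACreb3l2, 193 to 245 in AXBP1 and 208 to 262 in ACreb3l2/AXBP1, and all 8 had means above WT in the groups with AXBP1, with 0 called. Fibroblast and pericyte markers, led by Dcn and Col1a2, ran from 797 to 1038 CPM in WT, 767 to 1013 in ACreb3l2, 1042 to 1205 in AXBP1 and 1041 to 1218 in ACreb3l2/AXBP1. All 8 had higher means in AXBP1 and 7 in ACreb3l2/AXBP1, with median log2 changes of 0.31 in both and 0 called. Macrophage and microglia markers, led by Csf1r and C1qa, ranged from 343 to 510 CPM over all libraries, with each transgenic group overlapping WT. All 8 had higher means in ACreb3l2, with a median log2 change of 0.15 and 0 called. Pituicyte and astrocyte markers summed to 349.8 to 421 CPM in WT, 409 to 498 with ACreb3l2, 408 to 455 with AXBP1 and 421 to 492 with both. In ACreb3l2 and in ACreb3l2/AXBP1 7 of these 8 had higher means, with median log2 changes of 0.34 and 0.33. Of them Aqp4, the water channel of astrocytes, rose by 0.51 ± 0.14 (SE) on the log2 scale in ACreb3l2/AXBP1 (edgeR adjusted p = 0.0464), from 989.8 and 742 normalized counts for WT to 1117 and 1356. Without replicate 2 of that group the change was 0.36 (edgeR adjusted p = 0.338). Melanotrope markers, nearly all Pomc, summed to 111730 to 166741 CPM in WT, 110528 to 123424 with ACreb3l2, 102430 to 120182 with AXBP1 and 66223 to 90094 with both. The part of these cells in the levels of the immediate early genes was not tested.

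The spread between replicates was itself a feature of these genes. The within-group SD of log2 CPM, pooled over the 4 groups, had a median of 0.64 over the 10 genes and 0.13 over all genes tested. For 9 of 10 members it lay above the 95th percentile of all genes, from 0.42 for Nr4a1 to 0.92 for Junb, where 73 genes had a larger SD than Junb and 736 a larger SD than Nr4a1. Jun was the exception, with an SD of 0.06, at percentile 9.48. The genes most affected differed between groups. In ACreb3l2 the wide gaps were those of Nr4a3 (4.88-fold), Fosb (3.91-fold), Junb (3.41-fold) and Nr4a2 (2.40-fold), while Fos differed by 1.15-fold. In ACreb3l2/AXBP1 they were those of Fos (5.39-fold), Dusp1 (3.96-fold), Junb (2.08-fold) and Ier2 (1.98-fold), while Nr4a2 differed by 1.20-fold, and Fosb and Nr4a3 ran the other way at 1.32-fold and 1.21-fold. In WT all members but Jun were higher in replicate 1, with a median fold of 1.54, and the widest gap was that of Junb. Replicate 1 was also the higher for 9 members in ACreb3l2 and 7 in ACreb3l2/AXBP1, with median folds of 1.64 and 1.58. In AXBP1 it was the higher for 4 members. Of all genes tested, 49.4% to 50.6% were higher in replicate 1, depending on the group. In AXBP1 the gaps were 1.94-fold at most, for Dusp1, and Nr4a3 and Fosb agreed within 1.02-fold and 1.05-fold.

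**Figure D3:**
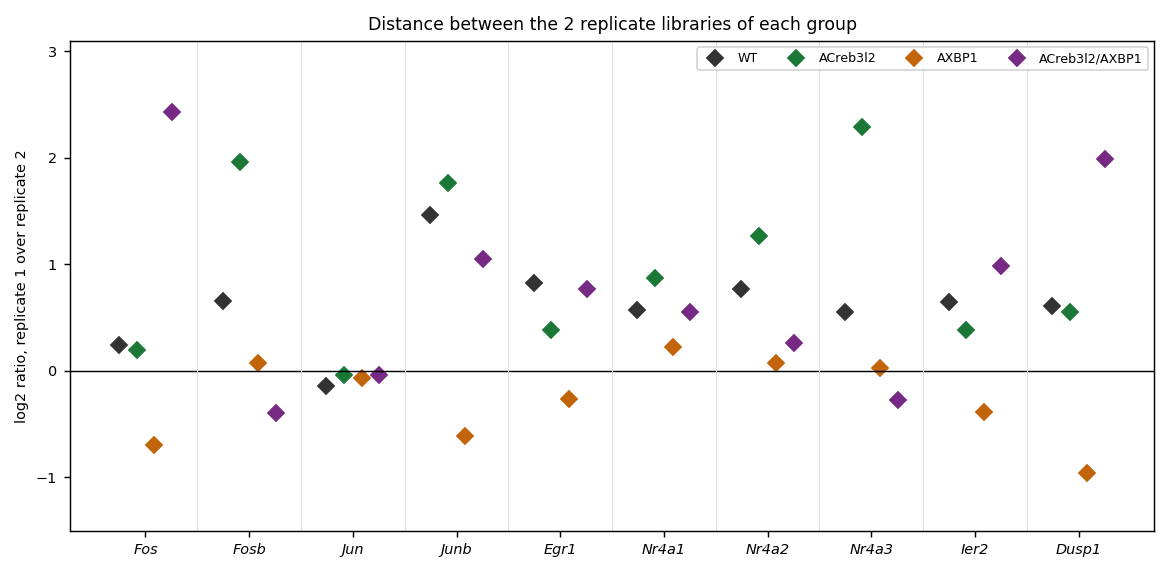
Log2 ratio of replicate 1 over replicate 2 (y axis, of normalized counts) for each immediate early gene, with a diamond for each group (WT black, ACreb3l2 green, AXBP1 orange, ACreb3l2/AXBP1 purple). Fosb and Nr4a3 stand out in ACreb3l2 and Fos and Dusp1 in ACreb3l2/AXBP1, at folds of 3.91, 4.88, 5.39 and 3.96, while Jun lies near 0 in every group.

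Across the 8 libraries the members fell into profiles that shared these gaps. The correlations given here are Pearson's r of log2 CPM over 8 libraries, which share group, pool and scaling, and are a description. Fosb and Nr4a3 followed each other closely (r = 0.98), as did Nr4a3 and Nr4a2 (r = 0.94) and Nr4a1 and Nr4a2 (r = 0.93), and the lowest of these 4 genes' pairs was Fosb with Nr4a1 (r = 0.81). Fos, Dusp1 and Ier2 formed another tight set, with r of 0.96 for Fos and Dusp1, 0.97 for Dusp1 and Ier2 and 0.93 for Fos and Ier2. Between the sets the values were lower, from 0.26 for Fos and Nr4a3 to 0.60 for Nr4a1 and Ier2. Fos and Fosb, which encode related partners of Jun, gave 0.31. Junb and Egr1 stood between them, with Junb at r of 0.69 to Fos and 0.83 to Nr4a3. Jun ran against all other members, at r from -0.36 with Nr4a3 to -0.75 with Egr1. These sets were drawn after the values were seen.

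**Figure D4:**
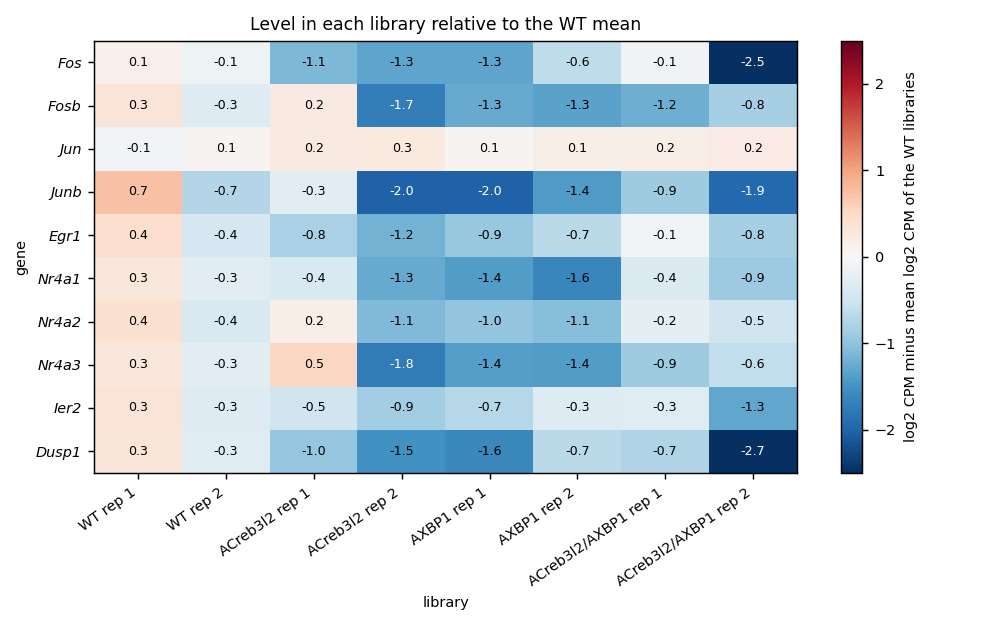
Level of each immediate early gene (rows) in each library (columns) as log2 CPM minus the mean log2 CPM of the WT libraries, with the value printed in the cell. Blue is below and red above the WT mean. The lowest cells are those of Dusp1 and Fos in ACreb3l2/AXBP1 replicate 2, and both AXBP1 columns are blue for all members but Jun.

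The genes were chosen by name and not by the bases before the start site. The class is known for control through CREB, so CREB sites there are not independent of the choice. CREB binds the cAMP response element (CRE), whose full form is TGACGTCA and whose core is TGACG. The core, on either strand, was searched in the 250 bases before the RefSeq start (build GRCm38.p6). It was found for 7 of the 8 members whose windows were read, and in 17.7% of 32817 such windows of all genes. Jun was the member without it. Nr4a1, Nr4a2 and Nr4a3 each held 4 cores, of which that of Nr4a3 nearest to the start, at 147 bases before it, lies in the stretch with annotated exon and is not printed, Dusp1 held 3, of which a pair overlap in a full CRE, Fos held 2, and Fosb and Junb held 1 each. The full CRE was in 1.55% of all windows. The AP-1 site TGANTCA (6.75% of all windows), the NBRE bound by Nr4a monomers, AAAGGTCA (1.34%), and the CArG box of SRF (1.47%) were in 0 of the 8 windows, which says only that these letters are not there. Egr1 and Ier2 were not in the table used. The core holds a CpG, and the windows shown were rich in G and C, from 58.4% in Fos to 80.0% in Nr4a2. The windows of all genes were not matched to them in this. The windows below are printed 5′ to 3′ on the strand of the gene, with TGACG, its reverse complement CGTCA or the full CRE in capitals, for the 3 receptors, for Fos and Dusp1 as the other tight set, and for Jun as the gene without a core. They lie at chr15:101266596-101266845 (plus strand, Nr4a1), chr2:57124004-57124253 (minus, Nr4a2), chr4:48045055-48045152 (plus, Nr4a3), chr12:85473640-85473889 (plus, Fos), chr17:26508520-26508722 (minus, Dusp1) and chr4:95052223-95052472 (minus, Jun). Those of Nr4a3 and Dusp1 stop at the first annotated exon, after 98 and 203 bases.
Nr4a1: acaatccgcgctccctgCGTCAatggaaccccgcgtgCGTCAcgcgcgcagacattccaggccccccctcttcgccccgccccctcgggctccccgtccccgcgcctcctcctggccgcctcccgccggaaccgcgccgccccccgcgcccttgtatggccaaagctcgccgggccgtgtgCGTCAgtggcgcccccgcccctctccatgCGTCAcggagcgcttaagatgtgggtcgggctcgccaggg
Nr4a2: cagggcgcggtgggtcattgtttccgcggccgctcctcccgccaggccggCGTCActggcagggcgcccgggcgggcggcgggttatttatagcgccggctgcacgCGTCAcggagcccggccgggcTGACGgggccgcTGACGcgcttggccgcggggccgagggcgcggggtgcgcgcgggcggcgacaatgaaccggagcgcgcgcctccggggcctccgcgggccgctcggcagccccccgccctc
Nr4a3: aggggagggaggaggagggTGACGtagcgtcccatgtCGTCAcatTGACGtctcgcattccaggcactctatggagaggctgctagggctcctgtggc
Fos: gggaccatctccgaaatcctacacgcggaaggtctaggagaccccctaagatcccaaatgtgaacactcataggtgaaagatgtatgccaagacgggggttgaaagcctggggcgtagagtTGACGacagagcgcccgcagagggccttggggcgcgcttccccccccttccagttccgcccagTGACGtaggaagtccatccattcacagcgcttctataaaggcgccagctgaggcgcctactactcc
Dusp1: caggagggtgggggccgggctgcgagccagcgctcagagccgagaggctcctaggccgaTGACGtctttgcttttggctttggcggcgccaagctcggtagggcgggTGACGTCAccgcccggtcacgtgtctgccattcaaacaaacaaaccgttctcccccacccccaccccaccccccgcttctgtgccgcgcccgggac
Jun: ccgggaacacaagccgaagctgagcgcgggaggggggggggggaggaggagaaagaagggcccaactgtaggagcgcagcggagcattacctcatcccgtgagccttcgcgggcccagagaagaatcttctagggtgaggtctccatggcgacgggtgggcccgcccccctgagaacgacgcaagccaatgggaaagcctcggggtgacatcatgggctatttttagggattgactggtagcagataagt

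In these windows the Fos core nearest to the start began 66 bases before it, and a TATA box followed at 33 bases. The full CRE of Dusp1 began 143 bases before its start, and the Nr4a1 cores at 233, 213, 69 and 40 bases. A match is a description of the letters and not a site shown to be bound in the lobe.

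Other immediate early genes, listed by function, were read from the same fit. Of 17 other immediate early transcription factors with enough counts, 10 had lower means in ACreb3l2, 14 in AXBP1 and 13 for ACreb3l2/AXBP1, with medians of -0.14, -0.60 and -0.54 on the log2 scale. Of them 1 was called, Jund, an AP-1 subunit that is expressed at rest, with normalized counts of 10672 and 10573 for WT and 7534 and 5787 for ACreb3l2/AXBP1. It fell by 0.67 ± 0.12 (SE) on the log2 scale in ACreb3l2/AXBP1 (edgeR adjusted p = 0.0108), and by 0.50 without replicate 2 of that group (edgeR adjusted p = 0.0659). In that comparison 10.1% of all genes were called.

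Of 25 other feedback and effector genes, the medians were 0.08 for ACreb3l2, -0.24 for AXBP1 and -0.22 for ACreb3l2/AXBP1, and 10, 19 and 16 genes had lower means. In ACreb3l2 2 of them fell past the test, Arc and Zfp36, and in ACreb3l2/AXBP1 4 fell, Arc, Zfp36, Ppp1r15a and Plk3, while 0 rose in either and 0 passed in AXBP1. The shares of all genes called were 3.04%, 10.1% and 0%, in the order ACreb3l2, ACreb3l2/AXBP1 and AXBP1. Zfp36, which encodes tristetraprolin, a protein that speeds the decay of short-lived mRNAs, had 644 and 565 normalized counts for WT, 393 and 327 for ACreb3l2, 466 and 425 for AXBP1, and 369.9 and 279 for ACreb3l2/AXBP1. It fell by 0.75 ± 0.16 in ACreb3l2 and by 0.90 ± 0.16 in ACreb3l2/AXBP1 on the log2 scale (edgeR adjusted p = 0.0342 and 0.00977). Arc, a synaptic activity gene, had 1569 and 1579 for WT, 989 and 936 for ACreb3l2, 971 and 1332 for AXBP1 and 1028 and 1127 for ACreb3l2/AXBP1, and fell by 0.71 ± 0.14 and 0.55 ± 0.13 (edgeR adjusted p = 0.0218 and 0.0336). Ppp1r15a, the GADD34 subunit that guides a phosphatase to eIF2alpha, went from 1969.9 and 2344 for WT to 1289 and 986 for ACreb3l2/AXBP1, a fall by 0.92 ± 0.15 (edgeR adjusted p = 0.00914). Plk3, a stress kinase, fell by 0.83 ± 0.21 in that group, from 479.8 and 404 to 291 and 207 (edgeR adjusted p = 0.0412). In the groups in which they were called, both libraries lay below both WT libraries for each of these 4 genes. Without ACreb3l2/AXBP1 replicate 2 the changes in that group were -0.72 for Zfp36, -0.62 for Arc, -0.75 for Ppp1r15a and -0.61 for Plk3, and none passed the test (edgeR adjusted p of 0.0860, 0.141, 0.0659 and 0.278). In ACreb3l2 neither Arc nor Zfp36 passed when either WT or either ACreb3l2 library was left out, at changes from -0.75 to -0.67 for Arc and from -0.89 to -0.62 for Zfp36.

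Of 11 further cAMP and CREB target genes 9, 10 and 10 had lower means, with medians of -0.28, -0.40 and -0.31. Bdnf, the neurotrophin, was called in ACreb3l2/AXBP1, where it fell by 1.29 ± 0.28 on the log2 scale (edgeR adjusted p = 0.0327), from 1383 and 1178 for WT to 659.6 and 391. Its counts were 941 and 660.3 for ACreb3l2 and 634 and 808 for AXBP1, below WT in each library. Without ACreb3l2/AXBP1 replicate 2 the change in that group was -0.97 (edgeR adjusted p = 0.126). The 1 call among 11 genes stands beside 10.1% of all genes. Among 24 kinases and factors upstream of these genes the medians were 0.02, 0.02 and -0.06, and 11, 9 and 14 had lower means. Of them 1 was called for ACreb3l2, 0 for AXBP1 and 2 for ACreb3l2/AXBP1, beside 3.04%, 0% and 10.1% of all genes. Rps6ka5, the MSK1 kinase that phosphorylates CREB, rose by 0.55 ± 0.13 in ACreb3l2 and by 0.76 ± 0.12 in ACreb3l2/AXBP1 (edgeR adjusted p = 0.0465 and 0.00725), from 582 and 493 for WT to 781 and 795 and to 832 and 994. Rps6ka2, the RSK3 kinase, fell by 0.76 ± 0.16 in ACreb3l2/AXBP1 (edgeR adjusted p = 0.0273), from 5056 and 4522 to 3296 and 2367. Without replicate 2 of that group the changes were 0.62 for Rps6ka5 and -0.55 for Rps6ka2 (edgeR adjusted p = 0.0727 and 0.127). Rps6ka5 in ACreb3l2 kept its call without WT replicate 1 and lost it without WT replicate 2 or either ACreb3l2 library (edgeR adjusted p of 0.168 to 0.258).

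Of 12 tested genes of the Nr4a partners and the POMC axis the medians were 0.12, 0.00 and 0.14, and 2 were called, both in ACreb3l2/AXBP1, where 10.1% of all genes were called. Tbx19, which encodes Tpit, the factor that defines POMC cells, fell by 0.88 ± 0.19 (edgeR adjusted p = 0.0245), from 21336 and 23105 to 14474 and 9604. Nr3c1, the glucocorticoid receptor, which opposes Nr4a receptors at the Pomc promoter, rose by 0.46 ± 0.13 (edgeR adjusted p = 0.0488), from 2649 and 2186 to 2988 and 3682. Without replicate 2 of that group the changes were -0.63 for Tbx19 and 0.30 for Nr3c1 (edgeR adjusted p = 0.0828 and 0.351). Among 12 heat shock and stress genes, a list that also holds Hspa5, an ER chaperone of the unfolded protein response, 9, 11 and 9 had lower means, with medians of -0.05, -0.23 and -0.10, and 0 were called by edgeR. The most abundant of them, Hspa5, had 72518 and 82287 normalized counts for WT and 73324 and 81550 for ACreb3l2. It had 61493 and 64915 for AXBP1 and 72174.5 and 54025 for ACreb3l2/AXBP1. Hspa8 had 49853 and 48553 for WT, 50748 and 43340 for ACreb3l2, 40527 and 47042 for AXBP1, and 39578 and 38152 for ACreb3l2/AXBP1. The inducible heat shock genes Hspa1a and Hspa1b, chosen after their values were seen, changed by -0.05 ± 0.43 (SE) and 0.07 ± 0.60 on the log2 scale in AXBP1. Other genes of the list fell more there. Hsph1 had 2619 and 2814 for WT and 1391 and 1964 for AXBP1, and Bag3 1468 and 1501 for WT and 1040 and 1168.5 for AXBP1. Hspa1a and Hspa1b were highest in ACreb3l2/AXBP1 replicate 2, at 276 and 376 normalized counts, where Fos and Dusp1 were lowest. The part of handling in the levels of the immediate early genes was not tested.

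Outside these lists, the genes whose profile over 8 libraries was most like the mean of the 10 members, each standardized, were Pim3 (r = 0.98), Mrap2 (r = 0.98), Gper1 (r = 0.97), Nfkbiz (r = 0.97), Fam110a (r = 0.96), Irf3 (r = 0.95), Ccl7 (r = 0.94), Slc25a25 (r = 0.94), Ccdc137 (r = 0.94) and Nkd1 (r = 0.93). They were ranked by Pearson's r among all other genes tested. The listed gene Csrnp1, itself an immediate early nuclear factor, reached r = 0.95. Pim3, a serine kinase, had 4842 and 3326 normalized counts for WT, 3869 and 2378 for ACreb3l2, 2504 and 2472 for AXBP1, and 3311 and 2263 for ACreb3l2/AXBP1. Ccl7, a chemokine, moved more widely, with 148 and 101 for WT, 134 and 42.3 for ACreb3l2, 30.6 and 64.7 for AXBP1, and 69.2 and 38.2 for ACreb3l2/AXBP1. Of the 10 members, Junb was closest to the mean profile (r = 0.99), then Nr4a1 (r = 0.91) and Nr4a2 (r = 0.90), and Jun ran against it (r = -0.59). Each member is part of that mean, which raises its r, so these values cannot be set beside those of the other genes.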

How the data were processed

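Counts and FPKM of 8 libraries were used. Per the study's methods the authors trimmed reads with Trimmomatic, aligned them to mm10 with Tophat and counted them per gene with HTSeq-count, and deposited whole-number counts with no normalization. A software list of the study names another aligner, and the strand setting and annotation release are not given in the sources used here. The labels state ribosomal depletion, where the methods text names an mRNA kit. The deposited FPKM values are fragment numbers that the authors scaled by gene length and library size, and the 2 loci of Junb were summed.

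Genes with a mean scaled count above 20 (15580 genes) were fitted in edgeR 4.0.16 (R 4.3.3) with TMM, robust dispersion and a quasi-likelihood test, group as the only term, adjusted by Benjamini-Hochberg over all genes tested. A gene is called at an adjusted p under 0.05. SE is the log2 change over the root of F. The interaction sets the double transgenic change against the single changes added up. Log2 CPM used a prior count of 2. DESeq2 1.42.0 and limma 3.58.1, on log2(FPKM + 0.1) and log2(FPKM + 1), were alternatives. The fit was tested on simulated data. An exact permutation test of 2 libraries against 2 cannot pass 0.05. Nothing says that libraries of a group came from separate dissections, so p-values measure only the spread between these libraries.

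The members and lists were chosen with earlier results of these data known. Named were all members, up to 4 called genes per list by adjusted p (where none, the 2 highest), and the 10 genes most like the members. Depth was 28256086 to 37988912 counts, so the spread between libraries, not counting error, limits precision. Replicates were distinct libraries (chi-squared per degree of freedom from 10.7 to 48.5). Loci are those of the deposited table, counted from 1, with strand from GENCODE M21.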

Additional observations from a re-analysis of the deposited data

How the results depend on the processing

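Without the filter on low counts, edgeR called 7 members for ACreb3l2, 9 for AXBP1 and 9 for ACreb3l2/AXBP1 against WT, 5 for ACreb3l2 against AXBP1, 5 for ACreb3l2/AXBP1 against ACreb3l2, 6 for ACreb3l2/AXBP1 against AXBP1, 7 in the interaction and 9 in the joint test, where 4.92%, 2.13%, 10.9%, 2.47%, 1.74%, 2.56%, 0.426% and 9.75% of all genes were called in the same order. The median prior degrees of freedom of that fit were infinite, against 5.99, and the SE of Nr4a1 in AXBP1 was 0.10 against 0.37. DESeq2 called 1 in AXBP1 and 1 in the joint test (Nr4a1), beside 0.469% and 8.90% of all genes. With only the libraries compared, edgeR called 1 in ACreb3l2 against WT (Fos) and 1 in ACreb3l2/AXBP1 against AXBP1 (Nr4a2), beside 1.77% and 0.783% of all genes. With library size alone it called 1 in ACreb3l2/AXBP1 against WT (Jun, higher), beside 10.6%. Where no value above shows it, the cause was not tested. Median-ratio factors, filterByExpr and limma called 0 members.

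The labels give the groups the same replicate numbers. Over all 15580 genes tested, deviations of same-numbered libraries correlated at -0.20 to 0.09 over 6 pairs of groups. Replicate 1 was the higher for 9 of the 10 members in WT. It was so for 9, 4 and 7 members in the ACreb3l2, AXBP1 and double transgenic groups. Whether same-numbered libraries had more than a number in common for the members was not tested. With the replicate block, 1 member, Nr4a1, was called in each comparison with WT (ACreb3l2, AXBP1, ACreb3l2/AXBP1), in ACreb3l2/AXBP1 against AXBP1 and in the joint test, where 2.06%, 0.0193%, 7.14%, 0.372% and 1.99% of all genes were called. With the numbers of ACreb3l2/AXBP1 crossed, chosen after seeing the data, 0 members were called in any comparison and 2059 genes in ACreb3l2/AXBP1 against WT.

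Leaving out each library in turn, members called ranged from 0 to 2 in ACreb3l2 against WT (Fosb and Nr4a3 without ACreb3l2 replicate 1), 0 to 2 in ACreb3l2/AXBP1 against WT (Fosb and Nr4a3 without either ACreb3l2 library, Fos and Ier2 without ACreb3l2/AXBP1 replicate 1), 0 to 1 in ACreb3l2 against AXBP1 (Nr4a3 without ACreb3l2 replicate 2) and 0 to 2 in the joint test, and stayed at 0 in the others. The shares of all genes called in those fits ran from 0.982% to 3.97%, 1.40% to 13.4%, 0.116% to 0.976% and 1.42% to 4.61%, in the same order. A lone library is then assumed to vary like the other groups. Members with every library below WT ranged from 5 to 9 in ACreb3l2, 5 to 9 in ACreb3l2/AXBP1 and 2 to 8 over all 6 transgenic libraries, where 34.1% to 38.1%, 35.3% to 41.5% and 12.6% to 28% of all genes were. With library size alone these counts were 3 in ACreb3l2/AXBP1 and 1 over all 6 (15.4% and 6.75% of all genes), and by FPKM 8 and 4 (32.6% and 14.1%). The scalings of these counts were chosen after seeing the data. Of the 11 genes of the other lists called in ACreb3l2/AXBP1, 0 were called without replicate 2 of that group, 1 (Zfp36) without WT replicate 2, 10 without replicate 1 of that group and 6 without WT replicate 1, and of the 3 called in ACreb3l2, 0 without WT replicate 2 or either ACreb3l2 library, 1 (Rps6ka5) without WT replicate 1 and 0 with library size alone or by FPKM. All kept their direction in every setting. These settings were also added after seeing the data.

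The same settings turned some log2 changes. In ACreb3l2, Fosb ran from -1.79 to 0.18, Nr4a2 from -1.16 to 0.11 and Nr4a3 from -1.79 to 0.50, each lowest without ACreb3l2 replicate 1 and highest without replicate 2, and Nr4a2 and Nr4a3 were also at 0.052 and 0.085 without WT replicate 1. In ACreb3l2/AXBP1, Egr1 ran from -0.89 to 0.015 and Nr4a2 from -0.76 to 0.021, each highest without WT replicate 1. Nr4a3 in ACreb3l2 against AXBP1 ran from -0.37 to 1.91. Jun in AXBP1 was -0.054 and -0.049 by FPKM with pseudocounts of 0.1 and 1. FPKM moved the median of all genes in AXBP1 by -0.16 and -0.13 with pseudocounts of 0.1 and 1, and library size alone moved it by 0.16 in ACreb3l2/AXBP1.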
